A study of Mus musculus with 6 samples.

Results

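The genes of the colony-stimulating factors and of a set of interleukins that tumour cells can release were followed in TuBo cells, a line grown from a mammary tumor of BALB/c-MMTV-NeuT mice that models HER2+ breast cancer. The 10 genes Csf1, Csf2, Csf3, Il6, Il11, Lif, Il15, Il34, Il33 and Il18 were picked by symbol out of 21960 genes in the deposited counts, and all 10 were found. RNA-Seq had been run on 3 mock libraries (genotype wt in the labels) and 3 p140Cap libraries, whose cells carry p140Cap cDNA from the pBabe-puro retrovirus and were derived by pooling puromycin-selected single-cell clones. Both groups come from the NeuT tumor line, in which the rat Neu oncogene is driven by the MMTV promoter. The labels call the samples cell lines, and the design text calls them mice. No source states whether the replicates were separate cultures, so p-values measure the spread between these libraries, which may be technical. Of the 10 genes, 7 had enough reads for a test, and Csf2, Il6 and Il18 did not.

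These cytokines act on different cells through a few shared receptors. G-CSF (encoded by Csf3) drives the production and release of neutrophils, M-CSF (Csf1) and IL-34 (Il34) both sustain macrophages through the receptor CSF1R, and GM-CSF (Csf2) acts on granulocytes and macrophages. IL-6, IL-11 and LIF each bind a receptor of their own and then signal through the common subunit gp130 (Il6st) to STAT3. IL-15 supports natural killer cells and memory T cells and is presented to them bound to IL-15Rα, while IL-33 and IL-18 are IL-1 family cytokines, the first stored in the nucleus of epithelial cells and the second matured by caspase-1.

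Total reads lay between 33058719 and 75506562 in the mock libraries and between 13770385 and 15364850 in the p140Cap libraries, so rare transcripts were measured less precisely in p140Cap cells. Srcin1, which encodes p140Cap, was at 12.8 to 16.6 CPM (reads of a gene scaled to the TMM-adjusted size of its library) in the mock libraries and at 2244 to 2519 CPM in those labelled p140Cap. The epithelial markers Epcam, Cdh1, Krt7, Krt8 and Krt18 were abundant in every library, and the 6 listed epithelial markers summed to 5410 to 5810 CPM (mock) and 5990 to 6090 CPM (p140Cap), with Krt19 at 5 reads or fewer in each library. Within this list Krt7 fell by 0.84 on the log2 scale (edgeR adjusted p = 9.45e-10) and Epcam rose by 0.42 (edgeR adjusted p = 4.35e-07). Among 9 leukocyte markers, Ptprc, Adgre1, Ly6g, Lyz2, Cd3e and Nkg7 had 0 reads in every library, Itgam had 1 read in all, and the list summed to 2.04 to 2.34 CPM (mock) and 3.23 to 4.09 CPM (p140Cap), nearly all of it Cd68, which rose by 0.83 on the log2 scale (edgeR adjusted p = 0.000119). Of 7 fibroblast and endothelial markers, Col1a2 and Dcn had 0 reads, Col1a1 rose by 0.80 on the log2 scale (edgeR adjusted p = 0.000244) and Pecam1, on 18, 17 and 5 reads in mock and 11, 7 and 10 reads in p140Cap libraries, by 1.25 (edgeR adjusted p = 0.0133). Pdgfra, which gave most of the summed level, was not called (7.18 ± 0.688 CPM in mock and 7.67 ± 0.830 CPM in p140Cap cells, log2 fold change 0.09, edgeR adjusted p = 0.499), and the list summed to 10.2 to 10.9 CPM (mock) and 12.1 to 14.6 CPM (p140Cap). Zero reads in a group allow up to 0.0201 CPM in mock and 0.069 CPM in p140Cap cells, at 3 reads over the group and for counting error only. The part of these transcripts in the results was not tested.

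The levels of the cytokine genes spanned several orders of magnitude. To compare genes with each other, CPM was divided by the length of the annotated exons in kilobases. On this scale Csf3 was the most abundant in both groups, at 52.6 ± 2.24 CPM per kilobase in mock cells and 25.4 ± 0.484 in p140Cap cells (SD, n = 3 libraries each here and below). Lif came next with 11.4 ± 0.84 CPM per kilobase in mock cells and 19.8 ± 0.177 in p140Cap cells, followed by Csf1 with 7.88 ± 0.375 and 8.16 ± 0.209. The lead of Csf3 over Lif thus narrowed from a ratio of 4.6 in mock cells to 1.28 in p140Cap cells, and in both groups the ranges of these 3 genes over the libraries stayed apart.

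Il34 was at 0.816 ± 0.0507 CPM per kilobase in mock cells and 1.54 ± 0.113 in p140Cap cells, and Il15 at 0.581 ± 0.0485 and 1.00 ± 0.0786. Il11 (0.352 ± 0.0653 in mock and 0.264 ± 0.0453 in p140Cap cells) and Il33 (0.272 ± 0.0178 and 0.204 ± 0.0292) overlapped in both groups, and their order turned when the longest transcript was used as the length. Csf2, Il6 and Il18 had mean levels under 0.05 CPM per kilobase in both groups and overlapped one another. From Il15 upward, each gene stood above the next one in every library of its group with either length.

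To show what lies in front of an abundant and of a nearly silent cytokine gene, the 250 bases upstream of the annotated start are given for Lif and Csf1, which were abundant, and for Il6 and Csf2, which were nearly silent (RefSeq, GRCm38.p6, read 5′ to 3′ on the strand of the gene). RefSeq windows were matched for 7 of the 10 genes, not for Csf3, Il15 and Il34. Capitals mark matches on either strand to 4 motifs, namely AP-1 (TGANTCA), NF-κB (GGG and TTCC with any 3 bases between them), C/EBP (TTGCNNAA) and the TATA box (TATAAA), and none of the matches shown overlap. The Lif window is chr11:4257318-4257567 on the plus strand, that of Csf1 is chr3:107760470-107760719 on the minus strand, that of Il6 is chr5:30012864-30013113 on the plus strand and that of Csf2 is chr11:54249900-54250149 on the minus strand.
Lif: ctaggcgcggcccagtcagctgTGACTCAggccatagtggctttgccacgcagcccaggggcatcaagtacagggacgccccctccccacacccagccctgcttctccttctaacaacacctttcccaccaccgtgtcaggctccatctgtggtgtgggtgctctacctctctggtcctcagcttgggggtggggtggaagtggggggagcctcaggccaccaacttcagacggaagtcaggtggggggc
Csf1: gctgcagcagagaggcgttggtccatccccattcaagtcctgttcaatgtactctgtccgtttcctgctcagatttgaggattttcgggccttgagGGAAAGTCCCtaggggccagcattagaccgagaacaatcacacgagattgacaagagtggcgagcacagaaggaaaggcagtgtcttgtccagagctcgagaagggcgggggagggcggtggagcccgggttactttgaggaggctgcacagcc
Il6: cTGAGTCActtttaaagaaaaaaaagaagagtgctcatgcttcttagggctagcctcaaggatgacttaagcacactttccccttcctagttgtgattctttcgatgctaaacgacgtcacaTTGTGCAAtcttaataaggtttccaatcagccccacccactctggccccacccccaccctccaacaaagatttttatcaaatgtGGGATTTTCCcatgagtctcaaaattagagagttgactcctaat
Csf2: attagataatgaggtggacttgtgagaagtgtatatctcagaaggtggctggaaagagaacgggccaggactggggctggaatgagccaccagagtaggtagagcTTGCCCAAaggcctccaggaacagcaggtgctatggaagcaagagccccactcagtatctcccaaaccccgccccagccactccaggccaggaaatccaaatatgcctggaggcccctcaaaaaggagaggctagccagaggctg

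The Il6 window, in front of a gene with 9 reads in all, held 3 of the 4 motifs, with an AP-1 match 249 to 243 bases before the start, a C/EBP match 128 to 121 bases before it and an NF-κB match 44 to 35 bases before it. The Lif window held a single AP-1 match, 228 to 222 bases before the start. Csf1 held a single NF-κB match, at 154 to 145 bases, and Csf2 a single C/EBP match, at 145 to 138 bases. Over 32851 windows of the same length from 27025 genes, 6.75% held the AP-1 letters, 4.65% those of NF-κB, 9.56% those of C/EBP and 12.4% the TATA box. A match to these letters is a description of the window and not a site shown to be bound.

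For each gene the mock and p140Cap libraries were then compared, to ask which cytokine RNAs differed between the groups. The p140Cap cells were pooled from selected clones, so p140Cap itself and the selection of clones cannot be told apart as the source of a difference. The test was the quasi-likelihood test of edgeR, adjusted by Benjamini-Hochberg over 11800 genes, and a gene is said to rise or fall at an adjusted p under 0.05. Of the 7 cytokine genes tested, 3 rose (Lif, Il15 and Il34), 1 fell (Csf3) and 3 were not called (Csf1, Il33 and Il11). Over all genes tested 71.1% were called, 35.2% as higher and 35.9% as lower, so 4 called of 7 is not more than the background. The median log2 fold change of the 7 genes was 0.05, and that of all genes tested was -0.00. The CPM of the 2 groups did not overlap for 5 of the 7 genes, while the same held for 73.4% of all genes tested. With 3 libraries against 3, an exact permutation test of a single gene cannot give a p below 0.1.

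**Figure D1:**
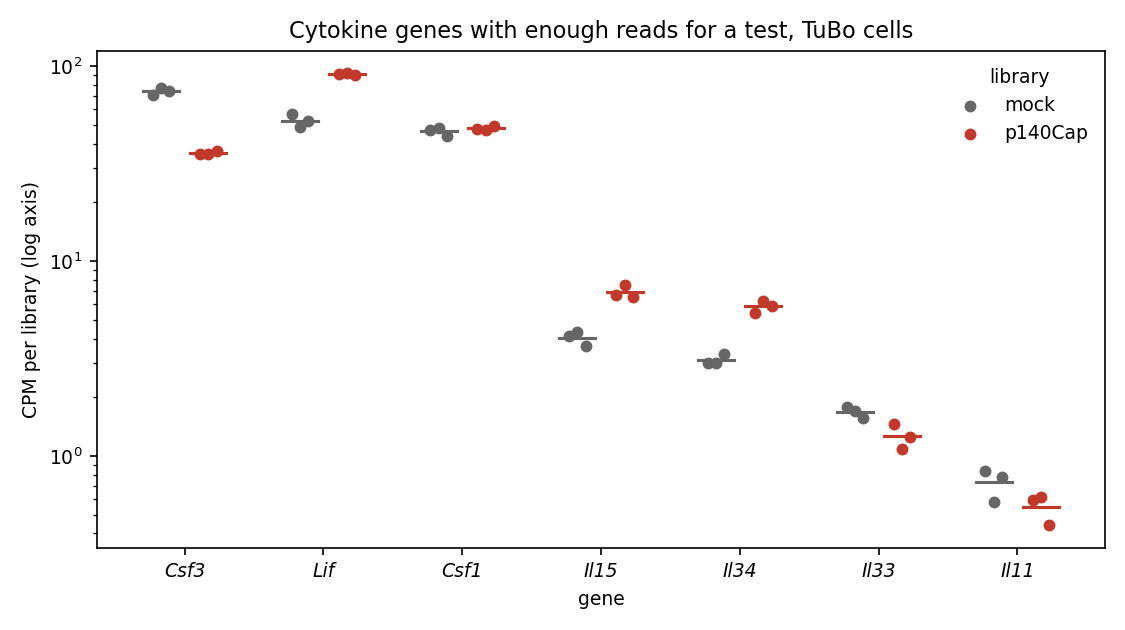
CPM on a log axis in each of the 6 libraries for the 7 cytokine genes tested, with a line at the mean of each group. The p140Cap libraries (red) lie below the mock libraries (grey) for Csf3 and Il33 and above them for Lif, Il15 and Il34, while those of Csf1 and Il11 overlap.

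Csf3 lies on chromosome 11 (98700183 to 98703631, GRCm38.p6), 1124.9 kb from the nearest edge of the Srcin1 gene. Its level was 71.3, 77.7 and 74.6 CPM in mock libraries 1 to 3 and 35.6, 35.5 and 36.7 CPM in p140Cap libraries 1 to 3. Each p140Cap library was thus below each mock library. The level fell 2.07-fold, by 1.05 on the log2 scale (SE 0.06, edgeR adjusted p = 7.3e-11), and 90.9% of all genes tested had a smaller absolute log2 fold change. In bulk RNA from pooled clones, fewer expressing cells and less RNA per cell cannot be told apart. The annotated gene Gm38985 overlaps Csf3 on the other strand. How strand was set in the counting is not given in the sources read, so reads of overlapping genes cannot be told apart with certainty. Genes on the other strand also overlap Csf1 (Gm40121), Csf2 (Gm57329), Il6 (Gm42450) and Il18 (Bco2 and Tex12), and those over Il34, Il15 and Il33 are named below.

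The macrophage factor Csf1 (chromosome 3, 107741048 to 107760469) was not called. It was at 47.1, 48.1 and 43.8 CPM in the mock libraries and 47.7, 46.9 and 49.3 CPM in the p140Cap libraries, and the groups overlapped. The log2 fold change was 0.05 (SE 0.06, edgeR adjusted p = 0.452). The reads pooled over each group gave a p140Cap to mock ratio of 1.03 with a 95% exact counting interval of 0.978 to 1.08, which covers counting error only. Relative to Csf1, the level of Csf3 was 1.61 ± 0.0931 in mock cells and 0.749 ± 0.0068 in p140Cap cells as a ratio of CPM within a library (SD, n = 3).

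Il34 (chromosome 8, 110741829 to 110805949), the other ligand of CSF1R, rose. Mock libraries held 3.01, 2.99 and 3.33 CPM, and p140Cap libraries 5.41, 6.27 and 5.88 CPM, with no overlap. The increase was 1.89-fold, or 0.92 on the log2 scale (SE 0.12, edgeR adjusted p = 4.12e-06). On the other strand Il34 is overlapped by Mtss2, Vac14, Gm15894 and Gm15895. Csf2 (chromosome 11, 54247270 to 54249899) was close to absent, with 3, 3 and 0 reads in the mock libraries against 1, 0 and 0 in the p140Cap ones. This corresponds to a pooled ratio of 0.574 with a 95% exact counting interval from 0.0125 to 4.73, so no difference was detectable at this depth.

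Among the gp130 cytokines Lif was the abundant one. It lies on chromosome 11 (4257568 to 4272514) with no other annotated gene over it. Mock libraries had 56.7, 49.0 and 52.3 CPM of Lif and p140Cap libraries 91.4, 92.0 and 90.3 CPM, so that the lowest p140Cap library was far above the highest mock library. Lif rose 1.73-fold, or 0.79 on the log2 scale (SE 0.06, edgeR adjusted p = 2.81e-09), and 84.3% of all genes tested had a smaller absolute change. The ratio of Csf3 to Lif within a library was 1.26, 1.59 and 1.42 in mock cells and 0.39, 0.386 and 0.407 in p140Cap cells, so Csf3 had more reads than Lif in each mock library and fewer in each p140Cap library.

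Il11, whose product signals through gp130 with IL-11Rα, was a rare transcript (chromosome 7, 4772373 to 4782907). Its reads numbered 64, 23 and 26 in mock and 9, 9 and 6 in p140Cap libraries, or 0.732 ± 0.136 and 0.549 ± 0.0943 CPM, and the groups overlapped. The log2 fold change was -0.44 (SE 0.32, edgeR adjusted p = 0.229). Il6 (chromosome 5, 30013114 to 30019975) had 4, 4 and 1 reads in mock libraries and 0 in each p140Cap library. Zero reads over the 3 p140Cap libraries allow a level of up to 0.069 CPM, more than the pooled 0.0602 CPM of mock cells, at which 2.62 reads would have been counted in p140Cap cells. A decrease of Il6 was therefore not detectable at this depth.

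**Figure D2:**
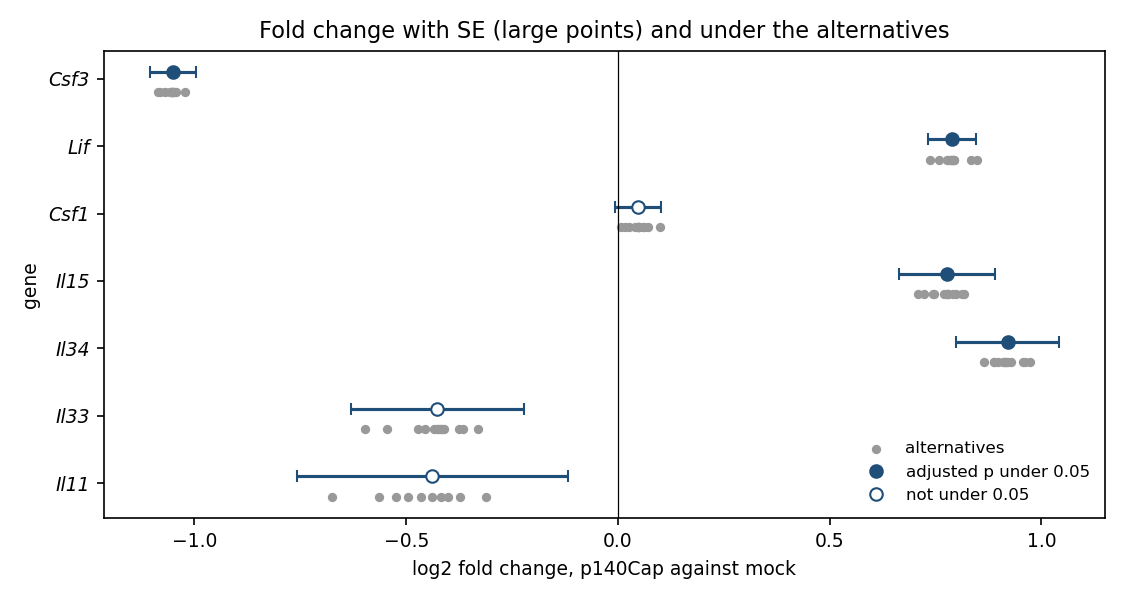
Log2 fold change of p140Cap against mock for the 7 genes tested (large points, bars are SE, filled where the adjusted p was under 0.05) and under the alternative ways of processing (small grey points). Csf3 is near -1.05, Lif, Il15 and Il34 lie between 0.78 and 0.92, and Il33 and Il11 have negative values with wide errors.

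Il15 (chromosome 8, 82331624 to 82403252) was at 4.10, 4.33 and 3.66 CPM in mock libraries and at 6.72, 7.56 and 6.54 CPM in p140Cap libraries, a 1.71-fold increase with no overlap. Its log2 fold change of 0.78 (SE 0.11, edgeR adjusted p = 1.31e-05) was close to that of Lif, at a level per kilobase that was far lower. Annotated 9530004M14Rik overlaps it on the other strand.

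Il33 (chromosome 19, 29925113 to 29960718) showed 1.78, 1.71 and 1.56 CPM in mock libraries and 1.45, 1.09 and 1.25 CPM in p140Cap libraries. Its p140Cap libraries were all below its mock libraries, but the difference did not pass the threshold, with a log2 fold change of -0.43 (SE 0.20, edgeR adjusted p = 0.0708). Pooled reads, 256 in mock and 55 in p140Cap cells, gave a ratio of 0.739 (95% exact counting interval 0.542 to 0.993, counting error only). The other 425 genes tested on chromosome 19 had a median log2 fold change of -0.34, and the 6 tested within 500 kb of Il33 a median of -0.35, so the value of Il33 was near that of its chromosome. Gm41832 overlaps Il33 on the other strand. Il18 (chromosome 9, 50554700 to 50581841) was at the detection limit in both groups, with 1, 0 and 2 reads in mock and 1, 2 and 0 reads in p140Cap libraries.

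Put together, the 10 genes had 183 ± 2.62 CPM in mock and 190 ± 0.760 CPM in p140Cap cells, a ratio of means of 1.04, while their make-up shifted. In CPM, with no division by length, Csf3 gave 40.7% ± 1.87 of the normalized reads on the 10 genes in mock cells and 18.9% ± 0.313 in p140Cap cells. The share of Lif went from 28.7% ± 2.07 to 48.1% ± 0.543, while that of Csf1 was 25.3% ± 0.873 and 25.3% ± 0.605 (SD, n = 3). Il15 and Il34 together with the rarer genes made up the small rest in every library.

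**Figure D3:**
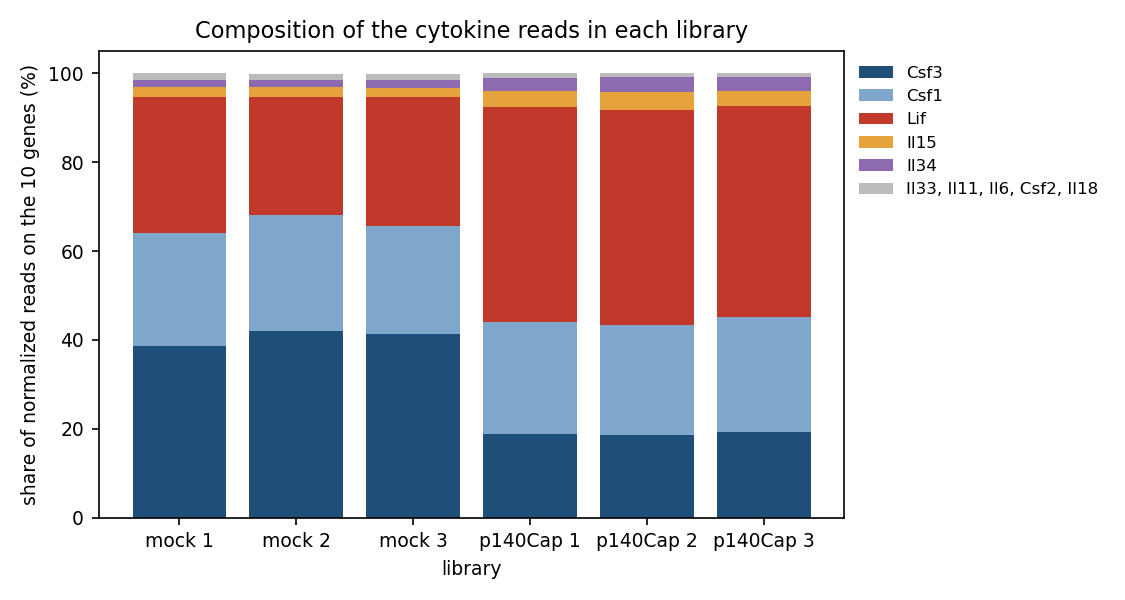
Share of the normalized reads on the 10 cytokine genes that each gene takes, in percent, stacked for each of the 6 libraries. Csf3 (dark blue) takes between 38.6% and 42.1% in the mock libraries and between 18.7% and 19.3% in the p140Cap libraries, and Lif (red) between 26.5% and 30.6% and between 47.4% and 48.4%.

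The receptors of these cytokines were read next, since they show which of these signals TuBo cells hold receptor RNA for. Of 18 receptor genes listed, 12 had any read and 9 could be tested, and of these 5 rose and 4 fell, with a median log2 fold change of 0.22. Over all genes tested 71.1% were called, 35.2% as higher and 35.9% as lower, so most of any list of tested genes would be called. Csf3r, Csf2rb, Csf2rb2, Il2rb, Il2rg and Ptprz1 had no read in any library, Csf1r showed 2, 3 and 0 mock reads and none in the p140Cap libraries, and Il1rl1, the receptor of IL-33, had 2 reads in 1 mock library. The sequenced cells thus held reads for the RNA of G-CSF and M-CSF but none or nearly none for the receptors of these factors. Csf2ra, the GM-CSF receptor α chain, rose from 0.926 ± 0.127 to 2.43 ± 0.409 CPM (log2 fold change 1.37, SE 0.20, edgeR adjusted p = 1.43e-05), while its signalling partner Csf2rb was without reads.

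The gp130 receptor chains moved in different directions. Il6ra, the specific chain for IL-6, was at 11.7, 13.4 and 11.4 CPM in the mock libraries and 6.59, 6.95 and 6.83 CPM in the p140Cap libraries, a fall of 0.84 on the log2 scale (SE 0.10, edgeR adjusted p = 1.06e-06). Il11ra1, the chain for IL-11, rose by 0.52 (SE 0.09, edgeR adjusted p = 0.000101), from 12.4 ± 1.08 to 17.6 ± 2.12 CPM. Lifr, the chain for LIF, was at 12.3 ± 0.486 CPM in mock and 14.3 ± 0.849 CPM in p140Cap cells (log2 fold change 0.22, edgeR adjusted p = 0.0215), a call that was lost under 5 of 13 alternatives, among them without mock replicate 3 (0.19), without p140Cap replicate 1 (0.18) and without p140Cap replicate 2 (0.20). Il6st, the shared gp130 subunit, was the most abundant of these chains in CPM, at 133 ± 7.497 in mock and 119 ± 3.25 in p140Cap cells (log2 fold change -0.16, SE 0.05, edgeR adjusted p = 0.0127), and was not called without mock replicate 1 (-0.11, edgeR adjusted p = 0.0911).

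Il15ra, which carries IL-15 to its target cells, rose together with Il15. It was at 6.10, 5.41 and 5.59 CPM in the mock libraries and 9.10, 9.95 and 9.77 CPM in the p140Cap libraries, a log2 fold change of 0.74 (SE 0.10, edgeR adjusted p = 3.77e-06). Il1rap, the co-receptor that IL-33 shares with IL-1, rose by 0.36 (SE 0.05, edgeR adjusted p = 9.63e-06), and Sdc1, a proteoglycan that binds IL-34, fell by 0.18 (SE 0.05, edgeR adjusted p = 0.00228). Il18rap, a subunit of the IL-18 receptor, fell by 1.52 (SE 0.27, edgeR adjusted p = 9.29e-05) on 173, 88 and 50 reads in mock and 11, 8 and 12 reads in p140Cap libraries, and its partner Il18r1 had 1 read in all.

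Genes used widely as readouts of gp130 and STAT3 signalling were then counted, from a list chosen with results of these data known. Of 12 listed genes, 10 could be tested and all 10 rose at an adjusted p under 0.05 (edgeR), beside 35.2% of all genes tested, with log2 fold changes from 0.48 to 2.21 and a median of 0.81. The listed Saa3 and Hp were nearly unread and could not be tested. Saa3 had 2, 0 and 1 reads in mock and 0, 0 and 1 reads in p140Cap libraries, and Hp had 1, 0 and 1 and 0, 1 and 0. Summed over the list, the level was 3620 to 3930 CPM in mock and 5850 to 6090 CPM in p140Cap libraries, most of it from Lcn2. Because the list was chosen in this way, its count beside that share is a description and not a test. Several of these genes also respond to other signals such as NF-κB, and the signal behind their increase was not tested.

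Lbp, which encodes the lipopolysaccharide binding protein of the acute phase, was at 129, 138 and 138 CPM in mock libraries and 341, 357 and 337 CPM in p140Cap libraries (log2 fold change 1.36, SE 0.05, edgeR adjusted p = 1.22e-12). Osmr, the oncostatin M receptor that pairs with gp130, more than doubled from 41.0 ± 1.25 to 91.2 ± 3.00 CPM (log2 fold change 1.15, SE 0.05, edgeR adjusted p = 1.07e-11). The largest log2 fold change was that of Lrg1, at 2.21 (SE 0.39, edgeR adjusted p = 9.37e-05), which rests on 11, 6 and 7 reads in mock and 15, 9 and 9 reads in p140Cap libraries. Socs3, the feedback inhibitor of gp130, was at 11.3, 11.3 and 10.4 CPM in mock libraries and 16.9, 18.5 and 14.8 CPM in p140Cap libraries, with a log2 fold change of 0.60 (SE 0.09, edgeR adjusted p = 1.05e-05).

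**Figure D4:**
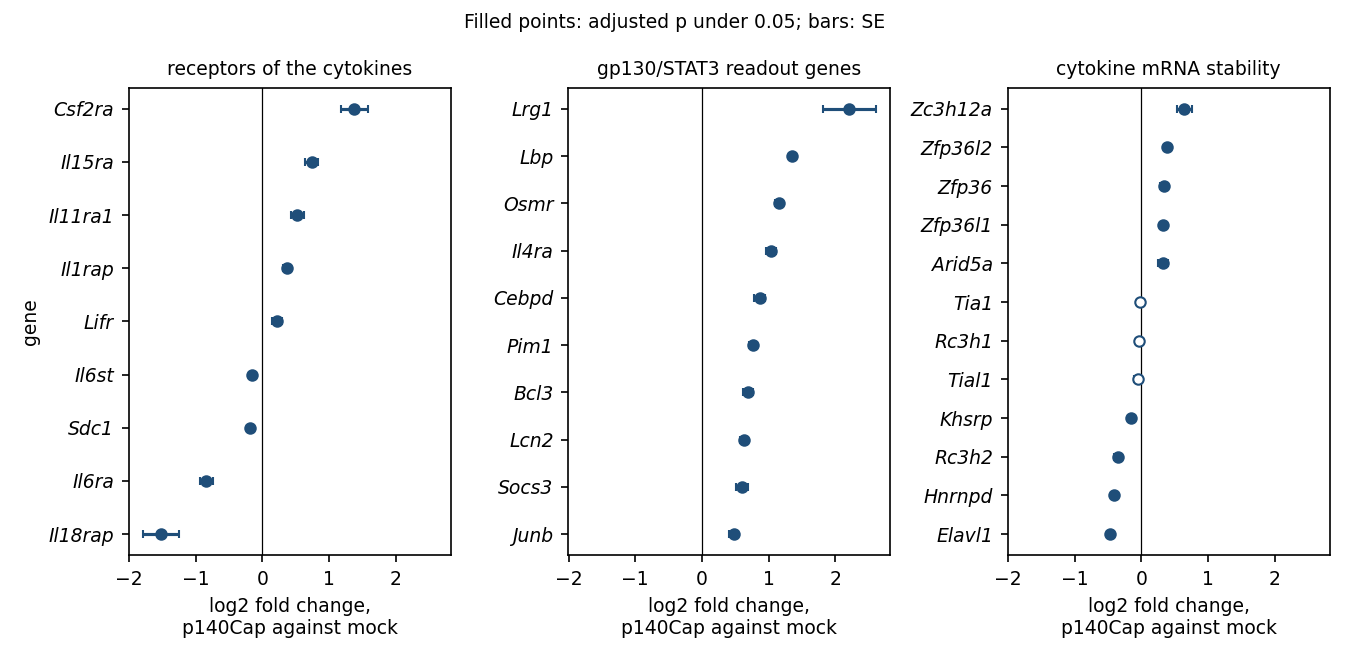
Log2 fold change of p140Cap against mock for the tested genes of 3 lists, the receptors of the cytokines, the gp130/STAT3 readout genes and the genes that act on cytokine mRNA stability (points filled where the adjusted p was under 0.05, bars are SE). The readout genes all lie to the right of 0, from 0.48 (Junb) to 2.21 (Lrg1), and the other lists hold genes on both sides. The lists were chosen with earlier results of these data known.

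RNA-binding proteins that set the lifetime of cytokine mRNAs fell on both sides of 0. All 12 were tested, 5 rose and 4 fell, with a median of -0.03, and 9 called of 12 is close to the background of 71.1%. Zc3h12a (Regnase-1) rose by 0.64 (SE 0.11, edgeR adjusted p = 6.96e-05). Zfp36, Zfp36l1 and Zfp36l2 rose by 0.33, 0.32 and 0.39 (edgeR adjusted p = 6.67e-05, 1.09e-05 and 1.88e-06), and Arid5a by 0.32 (edgeR adjusted p = 0.000891). Elavl1 (HuR) fell by 0.47 (SE 0.05, edgeR adjusted p = 1.71e-07), and Hnrnpd (AUF1) fell by 0.41 (SE 0.05, edgeR adjusted p = 4.8e-07). Rc3h2 also fell, by 0.35 (edgeR adjusted p = 1.13e-05), and Khsrp was at -0.15, a call that was lost without p140Cap replicate 3 (-0.12, edgeR adjusted p = 0.0765). Some proteins of this list hasten mRNA decay and others slow it, and their net effect on the cytokine mRNAs was not tested.

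Of 9 genes that process, release or restrain these or related cytokines, 5 were tested, 1 rose and 1 fell, beside 71.1% called in either direction over all genes tested. Casp4, an inflammatory caspase, rose from 3.69 ± 0.357 to 12.7 ± 1.46 CPM (log2 fold change 1.78, SE 0.11, edgeR adjusted p = 4.97e-10). Il1rn, the antagonist of the receptor of IL-1, which is not among the cytokines followed here, fell by 0.54 (SE 0.12, edgeR adjusted p = 0.000646). Il18bp, which neutralises IL-18, had a log2 fold change of -0.23 (edgeR adjusted p = 0.131). Casp1, which matures IL-18, had too few reads for the test, with 36, 12 and 17 reads in mock and 5, 3 and 4 reads in p140Cap libraries.

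Of 31 other interleukins, gp130 cytokines and blood cell growth factors, 21 had any read and 9 could be tested, of which 3 rose and 3 fell with a median of 0.09, near the 35.2% higher and 35.9% lower over all genes tested. Flt3l, a growth factor of dendritic cells, rose by 0.86 (SE 0.18, edgeR adjusted p = 0.000535). Cntf fell by 0.83 (SE 0.30, edgeR adjusted p = 0.0187) on 79, 35 and 34 reads in mock and 9, 10 and 5 reads in p140Cap libraries, and was not called without mock replicate 1 (-0.77) or without p140Cap replicate 3 (-0.63). Il1b had 1 read in all libraries together, and Osm, the ligand of OSMR, had none.

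The nearest tested genes on either side of each cytokine gene were read to set its change beside that of its surroundings. The nearest tested genes beside Csf3 were Psmd3, 4.2 kb away with a log2 fold change of -0.37 (edgeR adjusted p = 8.95e-06), and Med24, 1.0 kb away with -0.14 (edgeR adjusted p = 0.0424), and the median of 20 genes tested within 500 kb was 0.17. Beside Lif, Gatsl3 at 35.2 kb had a log2 fold change of 2.09 (edgeR adjusted p = 1.2e-05) and Mtmr3 at 208.4 kb one of 0.28 (edgeR adjusted p = 7.74e-05). Il34 lay between Mtss2 (Mtss1l in the counts), at 0.09 (edgeR adjusted p = 0.188), which is 0.4 kb away in RefSeq and is the gene given above as overlapping Il34 in GENCODE, and Sf3b3, 4.5 kb away at -0.49 (edgeR adjusted p = 1.31e-07). Beside Il15, Usp38 had -0.08 (edgeR adjusted p = 0.214) at 1316.6 kb and Zfp330 had 0.42 (edgeR adjusted p = 6.45e-07) at 360.4 kb. Il33 lay between Ranbp6 at -0.94 (edgeR adjusted p = 2.27e-09) and Uhrf2 at -0.22 (edgeR adjusted p = 0.000958).

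Beside Csf1 both nearest tested genes rose, Ahcyl1 by 0.30 (edgeR adjusted p = 1.24e-05) and Gstm5 by 0.83 (edgeR adjusted p = 9.6e-09), while beside Il11 Kmt5c rose by 0.32 (edgeR adjusted p = 0.000141) and Tmem238 fell by 0.87 (edgeR adjusted p = 9.7e-07). In their pattern over the 6 libraries, the genes most like Csf3 were Mfsd7b, Abcf2 and Strap, at a distance in centred log2 CPM of 0.03 to 0.07, where the median over all genes tested was 1.33. Zc3h6, Apobec3 and Efnb1 were most like Il15, at a distance of 0.13 to 0.14 with a median of 1.03. With 6 libraries in 2 groups this distance mostly reads the size of the group difference.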

How the data were processed

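RNA-Seq counts of 3 mock and 3 p140Cap libraries were used. Per the labels, RNA was poly(A)-selected, and per the study's methods libraries were stranded and sequenced on a NextSeq 500. The authors deposited counts, whole numbers of reads per gene without normalization. The submitters' processing notes name STAR 2.5, RSEM and the build mm10, while the study's data availability text names GRCm39; the annotation release and strand setting are not given in the sources read. Positions and promoter windows were taken from RefSeq of GRCm38.p6 (the assembly of mm10) by symbol, which matched 97.1% of genes, and exon lengths and overlapping genes from GENCODE (GRCm39) by Ensembl identifier, which matched 98.6%.

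Counts were analysed in R 4.3.3 with edgeR 4.0.16 (TMM, filterByExpr, quasi-likelihood test, condition as the sole term, 11800 genes tested). SE was obtained from the log2 fold change and the square root of F as their ratio, without sign. CPM uses TMM-adjusted library sizes. A count of 0 was read as at most 3 reads over a group, and exact intervals are Clopper-Pearson at 95%. The scripts were tested on simulated data. Of 2 rows named Flt3l, the one with more reads was used. Between libraries of a group the mean chi-square per gene was 1.75 to 10.7, so none was a copy of another. Same-numbered libraries deviated with correlations of -0.106 to -0.03 and were not treated as pairs.

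The genes and lists were chosen with earlier results of these data known. Named were all 10 genes, the detected receptor subunits, from each list the 3 called genes at most that changed most, nearest tested neighbours and the 3 genes most like Csf3 and Il15. Values of some named genes are not reported here. Beyond this, Socs3, Junb, Lcn2, Saa3, Hp, Zfp36, Zfp36l1, Zfp36l2, Arid5a, Rc3h2, Khsrp, Il18bp, Casp1, Il1b, Osm, Adam17, Tia1 and the markers were named after their values were seen. Alternatives were DESeq2 1.42.0, RLE factors, no filter, limma-voom (limma 3.58.1), a minimum of 10 reads per library, thinning, leaving out each library and a replicate block. Repeated thinning for Il33 was added after seeing the data. No column of another sample was present.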

Additional observations from a re-analysis of the deposited data

How the results depend on the processing

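Csf3, Lif, Il15, Il34 and Csf1 kept their direction and side of the threshold under all 13 alternatives, and Il11 did so under the 10 that tested it, its reads being too few with at least 10 reads in every library, without mock replicate 1 and without mock replicate 3. Il33 was called after 1 random thinning to the smallest total (-0.60, edgeR adjusted p = 0.0408), and in 10 further draws, chosen after seeing the data, it was called in 1, with values from -0.60 to -0.06, so reads of this number do not settle its call. Without a filter, none of Csf2, Il6 and Il18 was called (edgeR adjusted p = 0.708, 0.127 and 0.35). Genes called over the whole table numbered between 7851 and 8716, with 8034 under the replicate block, which called the same number of the cytokine genes, 4.

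Of 669 log2 fold changes of cytokine and list genes under these alternatives, 651 kept their direction and side of the threshold. Adam17 and Tia1, near 0 and not called, changed sign under some alternatives. Adam17 was at 0.004 with thinning and between -0.02 and 0.01 over the fits without single libraries, positive without mock replicate 1, mock replicate 2 or p140Cap replicate 2, and Tia1 was between -0.073 and 0.02 over these fits, positive in the one without mock replicate 1. Cntf was also not called by DESeq2 or after thinning. Depth limits Csf2, Il6 and Il18.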
